A study of Mus musculus with 4 samples.

Results

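The genes described here are 8 effectors of Notch signalling that were chosen by symbol: the repressors Hes1, Hes5, Hes6, Hey1, Hey2 and Heyl, the feedback inhibitor Nrarp and the DNA-binding factor Rbpj. Each symbol matched 1 of the 55487 genes in the deposited tables, and all 8 were among the 38143 genes tested. RNA was measured in muscle stem cells (satellite cells) directly after isolation from mouse skeletal muscle, in 2 Control libraries and 2 libraries with a conditional knockout (cKO) of Rbfox2, an RNA-binding regulator of splicing. In the cKO mice a floxed Rbfox2 allele is removed by Pax7CreERT2, a Cre that acts in Pax7-expressing cells after tamoxifen, and a Rosa26 EYFP allele labels the recombined cells. The labels call the other group Control and do not say which of these alleles or treatments it carries. They give neither age nor sex, do not say how the cells were sorted, and do not tie a library to an animal. Each p-value thus rests on the spread among these libraries alone, which may be technical. In edgeR that spread is shared over genes, so a gene's own spread counts for little. The series concerns Rbfox2 and Notch signalling in muscle stem cells, and the comparison asks whether the RNA of Notch effectors differs between satellite cells with and without Rbfox2.

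When a ligand on a neighbouring cell engages a Notch receptor, the intracellular part of the receptor is cut free, enters the nucleus and joins Rbpj on DNA, where it turns a repressed gene into an active one. Apart from Hes6, which antagonises Hes1, the Hes and Hey genes here are among the classical direct targets. They encode basic helix-loop-helix repressors, which recruit corepressors and hold back differentiation programmes such as the one Myod1 drives. In muscle, Notch signalling through Rbpj keeps satellite cells quiescent, and Hey1 and Heyl together are needed to maintain them.

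The letters that Rbpj prefers, TGGGAA, are shown first, since Notch targets are recognised through them. RefSeq promoter windows on GRCm38.p6, each from 250 bases before to 50 bases after a transcript start, were at hand for 5 of the 8 genes (Hes5, Hes6, Hey2, Nrarp and Rbpj). TGGGAA was found on either strand in windows of 3 of them, Hes5, Hey2 and Rbpj, against 28.3% of 27025 genes with a window. Each had a pair of matches, printed below along the gene's strand with the match in capitals, so that TTCCCA is the motif on the opposite strand. Positions count from the start base as 0.
Hes5, chr4:154960685-154960714, match from -226 to -221: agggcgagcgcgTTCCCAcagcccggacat
Hes5, chr4:154960829-154960858, match from -82 to -77: ggccgccgagtgTGGGAAcggccgcggcgc
Hey2, chr10:30842973-30843002, match from -207 to -202: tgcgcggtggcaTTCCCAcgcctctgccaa
Hey2, chr10:30842769-30842798, match from -3 to 2: tgggctgcagcgTGGGAAagaacctccagg
Rbpj, chr5:53590185-53590214, match from -149 to -144: aatgaaaaaggcTGGGAAcccgcggcgagc
Rbpj, chr5:53590269-53590298, match from -65 to -60: gacgctcgcattTTCCCAggacccctcctc
In all 3 genes the pair lay on opposite strands. Both Hey2 matches extended to the longer form CGTGGGAA, which contains the shorter motif and occurred in 0.734% of all 32851 windows. The N-box CACNAG and the class C site CACGNG, letters bound by Hes and Hey proteins themselves, were each found in windows of 2 of the 5 genes, Hes6 and Nrarp, against 46.1% and 30.3% of all genes. These matches are descriptions of letters and were not measured as binding.

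The 4 libraries held between 68884091 and 101997422 estimated counts. Genes at low level had more signal in cKO 1: the median over 1465 olfactory and vomeronasal receptor genes, which satellite cells are not known to use, was 0.687 TPM there, against 0.347 and 0.417 TPM in the Controls and 0.245 TPM in cKO 2. Haemoglobin genes and Alas2, markers of red cells, were higher in cKO, all 5 of them past the threshold. All 10 satellite cell markers lay above the 99th percentile of the receptor genes in each library, and their summed level ran from 14128 to 15354 TPM, most of it from Sdc4. Rbfox2 itself stood at 131.3 and 56.0 CPM in the 2 Controls, against 40.0 and 15.2 CPM in the 2 cKO libraries, with a log2 difference of -1.76 (edgeR's quasi-likelihood adjusted p = 0.000252). Leaving out any single library ended the call (adjusted p from 0.230 to 1.00), and a gene total includes RNA from exons that are not deleted.

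Levels per transcript length (TPM) placed the 8 genes in 3 bands. Heyl, Rbpj, Hes1 and Hey1 formed the upper band, from 16.3 to 118.5 TPM. Hes6 followed at 3.28 to 5.62 TPM. Hey2, Nrarp and Hes5 were at or near the level of the receptor genes. Heyl was the highest of the 8 in each library, and Hes6, Hey2, Nrarp and Hes5 took ranks 5, 6, 7 and 8 in each. The order within the upper band differed between libraries: Hes1 was below Hey1 in Control 1, lay between Hey1 and Rbpj in Control 2, and was above Rbpj in both cKO libraries.

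**Figure D1:**
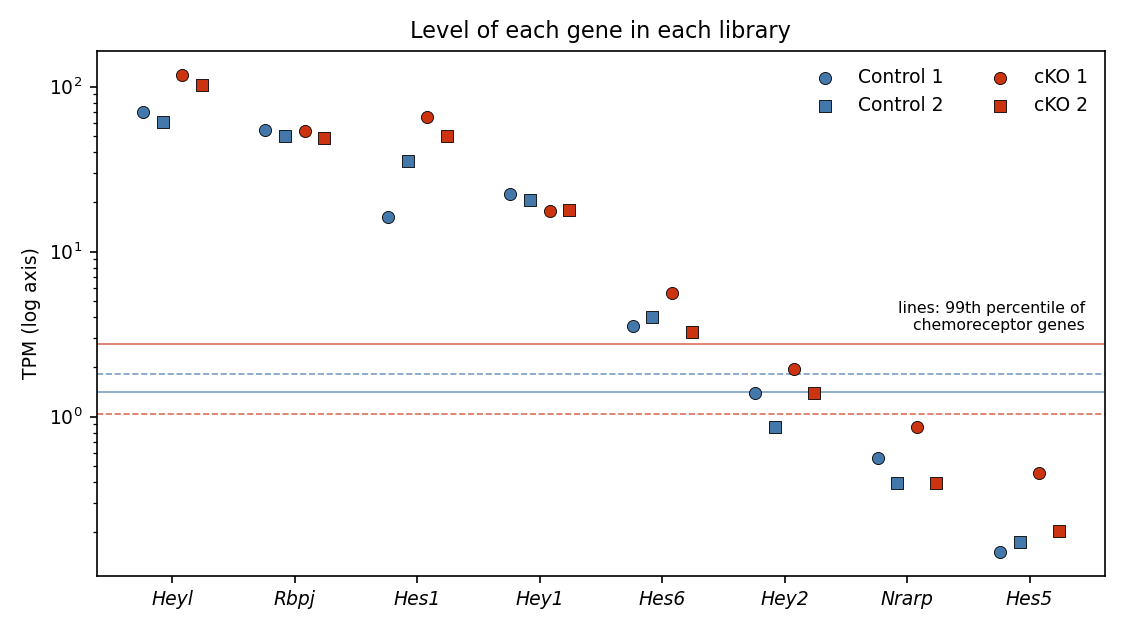
TPM of the 8 genes on a log axis, 1 point per library (blue, Control 1 and 2; red, cKO 1 and 2; circles, replicate 1; squares, replicate 2). The horizontal lines give the 99th percentile of 1465 olfactory and vomeronasal receptor genes in the library of the same colour, solid for replicate 1 and dashed for replicate 2, and Nrarp and Hes5 lie below the line of their library throughout.

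Of the 8 genes, 0 passed the threshold of an adjusted p under 0.05 in edgeR's quasi-likelihood test, where 0.551% of all genes tested were called (0.364% higher and 0.186% lower in cKO). Before adjustment 1 gene, Hes1, had p under 0.05, against 4.83% of all genes. DESeq2 also called 0, against 0.252% of all genes, with Hes1 under 0.05 before adjustment, against 3.1%. Limma on log2(TPM + 1) called 0 of the 6 genes it tested, against 0.308%, with Hes1 and Heyl under 0.05 before adjustment, against 14.9%. The median log2 fold change over the 8 was 0.23, against 0.06 over all genes tested. In normalised counts (CPM), both cKO libraries lay above both Controls for 2 genes, Hes1 and Heyl, against 18.0% of all genes, and below both for 1, Hey1, against 13.3%. In TPM the first number was 4, with Hes5 and Hey2 added, against 23.4%, and the second was again Hey1 alone, against 9.27%. Without regard to direction, 31.3% of all genes did not overlap in CPM and 32.7% in TPM. The counts in CPM are near these shares, and the genes added in TPM include one at background (Hes5) and one near it (Hey2), so the overlaps are given as a description.

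Hes1 (ENSMUSG00000022528.8, chromosome 16, 30064384 to 30067796, plus strand, GRCm38), the direct Notch target that antagonises Myod1 and represses neurogenic genes, had the largest difference of the 8. It stood at 13.4 and 29.0 CPM in the 2 Controls, against 40.3 and 40.8 CPM in the 2 cKO libraries. The cKO libraries differed 1.01-fold and lay above both Controls, while the Controls differed 2.17-fold from each other. The means were 21.2 ± 11.1 and 40.5 ± 0.329 CPM (SD, n = 2 each), a log2 fold change of 0.94 (SE 0.33, 95% interval 0.29 to 1.58, unadjusted p = 0.00449 and adjusted p = 0.346, edgeR). By unadjusted p it ranked 496 of 38143 genes. The p-value and the interval draw on a spread shared over genes and reflect the gap between the Controls little.

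The gap between the Control libraries was wide for Hes1 in comparison with other genes. Of 10579 genes with a mean of at least 4 CPM, 1.54% had a ratio between the Control libraries as large as that of Hes1, and the median ratio was 1.12. For the ratio of 1.01 between the cKO libraries, 98.8% of genes had one as large, with a median of 1.40. The size of the difference therefore depended on the Control used: it became 0.47 on the log2 scale without Control 1 and 1.58 without Control 2, with adjusted p from 0.151 to 1.00 over the 13 alternatives run on all genes, and it was positive in all 13. Since the groups did not overlap in CPM, the fits with 1 library left out had little room for another sign. In TPM the Hes1 values were 16.3 and 35.3 in Control and 65.4 and 50.3 in cKO. Limma put the difference at 1.22 on the log2 scale (SE 0.37, adjusted p = 0.253). With either Control left out, limma on TPM placed Hes1 past the threshold, at 0.69 without Control 1 (adjusted p = 0.0445) and 1.76 without Control 2 (adjusted p = 4.41e-13), in fits that do not measure the spread within Control.

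Red cell markers varied over the libraries in the same order as Hes1. Their 5 genes summed to 336 and 763 TPM in the 2 Controls, against 1798 and 1471 TPM in the 2 cKO libraries, with 0 of 5 at 0 in any library. As ratios to the Control mean, this was 0.612, 1.39, 3.27 and 2.68, and Hes1 was 0.631, 1.37, 2.54 and 1.95 in the same libraries. Within each unit the order of the libraries was the same for Hes1 and for these markers. In CPM, however, the cKO libraries stood in the reverse of their order in TPM for both. There Hes1 was nearly level, at 40.3 and 40.8 CPM in cKO 1 and 2, beside 512 and 606 CPM for the markers. The part of red cell RNA, or of what varies with it, in the Hes1 difference was not tested.

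Gm20605, Hinfp, Sirpa and Heg1 were among the 5 protein-coding genes with a profile most like that of Hes1. Likeness is the root mean square difference of the centred log2(CPM + 1) over the 4 libraries, which ran from 0.10 to 0.12 for these 4 genes. All 4 were lowest in Control 1, and their log2 fold changes lay between 1.00 and 1.04, with 0 past the threshold. A low Control 1 and a difference near that of Hes1 follow from choosing genes by likeness to it. Among 9606 genes compared, Heyl ranked 1324 for likeness to Hes1, Rbpj 5654 and Hey1 8194. With 4 libraries such ranks are coarse and are given as a description.

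**Figure D2:**
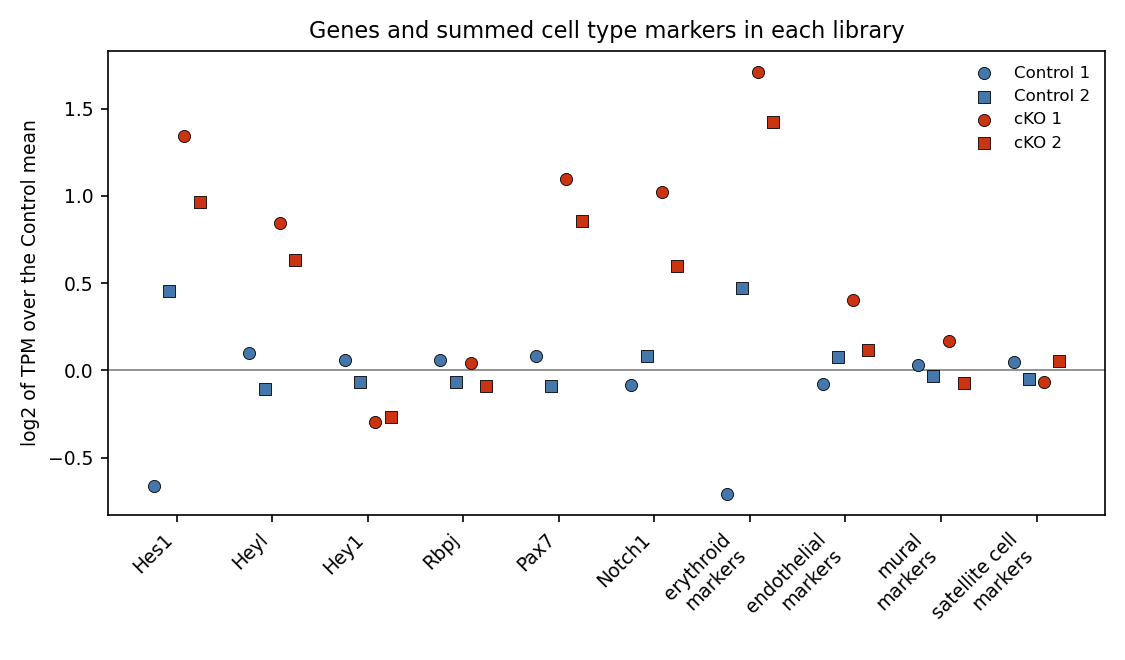
Log2 of the TPM in each library over the mean of the Control libraries, for 6 genes and for the summed TPM of red cell (erythroid), endothelial, mural and satellite cell markers (blue, Control; red, cKO; circles, replicate 1; squares, replicate 2). Hes1 and the red cell markers share a low Control 1 and a spread between Controls that the other items do not have, and Hey1 is the gene whose cKO points lie below both Control points.

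Heyl (ENSMUSG00000032744.4, chromosome 4, 123233556 to 123249875, plus strand), the Hey family member at the highest level here, stood at 189.2 and 160.9 CPM in the Controls, against 233.0 and 290.9 CPM in the cKO libraries. Both cKO libraries lay above both Controls, and the lowest cKO value was 1.23 times the highest Control value. The log2 fold change was 0.58 (SE 0.36, 95% interval -0.12 to 1.28, unadjusted p = 0.105, adjusted p = 1.00, edgeR), from 175.1 ± 20.1 to 261.9 ± 41.0 CPM (SD, n = 2 each).

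In TPM the Heyl groups were further apart, at 70.5 and 61.2 in the Controls, against 118.5 and 101.9 in the cKO libraries. The mean transcript length of Heyl varied only from 4449 to 4499 bases. TPM lack the TMM scaling of CPM, whose factor was 1.27 in cKO 1. Limma on TPM put the difference at 0.73 on the log2 scale (SE 0.14, adjusted p = 0.0802). Relative to the median of 0.13 over the genes it tested, this was 0.60, against 0.52 relative to the median in edgeR. The direction was positive in all 13 alternatives on all genes, from 0.34 to 0.75, with adjusted p from 0.00398 to 1.00. As for Hes1, groups without overlap in CPM left little room for another sign when 1 library was left out. Heyl passed the threshold in edgeR with library totals only (0.73, adjusted p = 0.0160). The share of all genes called with that scaling is not given here. The scaling moved the median of all genes by 0.19, and relative to that median of 0.25 the difference was 0.48. It also passed without cKO 1 (0.75, adjusted p = 0.00398), where 896 genes were called, and in limma with no filter on low TPM (adjusted p = 0.00552), without Control 1 (adjusted p = 0.00119) and without Control 2 (adjusted p = 0.0268). Such fits with 1 library in a group assume that it varies like the others.

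Heyl is also known from vascular smooth muscle and endothelium, so markers of those cells are given beside it. The 8 mural markers summed to 153.9 and 146.8 TPM in the Controls, against 169.0 and 142.8 TPM in the cKO libraries, with 0 at 0, and 1 of 8 had both cKO libraries above both Controls in CPM, against 18.0% of all genes. The 8 endothelial markers summed to 128.4 and 143.0 TPM in the Controls, against 179.8 and 146.9 TPM in the cKO libraries, with 0 at 0 and 4 of 8 above in both cKO libraries, against the same share. As ratios to the Control mean of TPM in cKO 1 and 2, the mural sum was 1.12 and 0.950, the endothelial sum 1.32 and 1.08, and Heyl 1.80 and 1.55. In CPM the ratios were 0.839 and 1.05 for the mural sum, 0.955 and 1.16 for the endothelial sum, and 1.33 and 1.66 for Heyl. Both sums in cKO 1 were hence below the Control mean in CPM and above it in TPM. The part of these cells in the Heyl difference was not tested. Summed markers of macrophages and leukocytes were also higher in both cKO libraries, beside both Hes1 and Heyl. Their 6 genes, none at 0, summed to 28.5 and 30.1 TPM in the Controls, against 49.7 and 42.2 TPM in the cKO libraries. This is 1.70 and 1.44 times the Control mean, and 1.33 and 1.44 times in CPM. Only 3 of the 6 lay above the 99th percentile of the receptor genes in each Control, and 5 in each cKO library. All 6 had a positive log2 fold change with a median of 0.53, 0 passed the threshold, and 3 of 6 had both cKO libraries above both Controls in CPM, against 18.0% of all genes. Muscle fibre markers went the other way in CPM, with 5 of 6 below both Controls in both cKO libraries. This compares with 13.3% of all genes and with 2394 of the 10579 genes at a mean CPM of at least 4. Their median log2 fold change was -0.45. In TPM their 6 genes, none at 0, summed to 58.3 and 58.4 in the Controls and to 59.0 and 37.3 in cKO 1 and 2. The part of either cell type in the differences of Hes1, Heyl and Hey1 was not tested. In bulk samples, more of a cell type and more RNA per cell cannot be told apart.

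Pax7, the satellite cell transcription factor, lay in the same order as Heyl. It stood at 26.5 and 22.7 CPM in the Controls, against 38.9 and 49.3 CPM in the cKO libraries (log2 fold change 0.84, adjusted p = 0.556), and it passed without cKO 1 (1.01, adjusted p = 0.00139) and with library totals only (0.98, adjusted p = 0.00911). The ratio of Heyl to Pax7 in TPM was 8.93 and 8.75 in Control and 7.43 and 7.57 in cKO, so that both cKO ratios lay below both Control ratios. Against the geometric mean of 8 satellite cell markers other than Pax7 and Calcr, a scale chosen after seeing the data, Heyl stood at 0.188 and 0.168 in Control and 0.286 and 0.296 in cKO, and Hes1 at 0.0434 and 0.0968 in Control and 0.158 and 0.146 in cKO. On that scale both cKO libraries lay above both Controls for both genes, but this outcome was fixed beforehand. The geometric mean itself ran only from 344 to 415 TPM. The lowest cKO value in TPM was already 1.44 (Heyl) and 1.43 (Hes1) times the highest Control value. Dividing by a scale that varied so little could not close that gap, so the result adds no support.

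Hey1 (ENSMUSG00000040289.8, chromosome 3, 8663359 to 8667256, minus strand), the partner of Heyl in satellite cell maintenance, was the one gene of the 8 with both cKO libraries below both Controls. It stood at 30.9 and 27.8 CPM in the Controls, against 17.6 and 27.0 CPM in the cKO libraries. The lowest Control value was 1.03 times the highest cKO value, so in CPM the difference lay mostly in cKO 1. The log2 fold change was -0.40 (SE 0.33, 95% interval -1.04 to 0.24, adjusted p = 1.00, edgeR), from 29.4 ± 2.21 to 22.3 ± 6.68 CPM (SD, n = 2 each). It was -0.11 without cKO 1, and -0.81 without cKO 2, where it passed the threshold (adjusted p = 0.0382) as 1 of 2016 genes called lower in that fit. It was negative in all 13 alternatives. Without overlap in CPM, the fits with 1 library left out had little room for another sign. In TPM the cKO libraries were close together, at 17.6 and 17.9, against 22.5 and 20.6 in Control (limma log2 fold change -0.27, SE 0.15, adjusted p = 0.454).

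Set against each other within a library, a comparison that needs no scaling between libraries, Heyl and Hey1 diverged. Heyl was 3.14 and 2.97 times Hey1 in TPM in Control 1 and 2, and 6.75 and 5.69 times in cKO 1 and 2. The share of Hey1 in the summed TPM of the 6 Hes and Hey genes was 19.7% and 16.9% in Control and 8.38% and 10.2% in cKO. The sum itself was 114.4 and 122.2 TPM in the Controls, against 209.4 and 175.0 TPM in the cKO libraries, and Heyl made up between 50.1% and 61.7% of it. These ratios were formed after the values were seen and were not tested.

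Rbpj (ENSMUSG00000039191.12, chromosome 5, 53466152 to 53657362, plus strand), through which all canonical Notch signals act, showed no separation of the groups. It stood at 160.6 and 144.3 CPM in the Controls, against 117.8 and 163.5 CPM in the cKO libraries, with the lowest and the highest value both in cKO. The log2 fold change was -0.12 (SE 0.35, 95% interval -0.80 to 0.57, adjusted p = 1.00, edgeR), and it was 0.11 without cKO 1 and -0.44 without cKO 2. In TPM the 4 values lay between 49.2 and 54.7. Of the 50-base words in its transcripts, 10.6% also occur in other genes, mostly the processed pseudogene Rbpj-ps3, which was listed at 6.30 to 7.21 TPM. Counts summed over both genes differed by a log2 ratio of -0.12. Hes1, Hes6, Hey1, Hey2 and Heyl shared 0% of such words with other genes. Since Rbpj has 12 annotated transcripts, the gene total does not say which were present.

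Hes6 (ENSMUSG00000067071.8, chromosome 1, 91411483 to 91414038, minus strand), a family member that antagonises Hes1 and is expressed in myoblasts, stood at 3.08 and 3.42 CPM in the Controls, against 3.47 and 3.01 CPM in the cKO libraries. The groups overlapped, with a log2 fold change of -0.0031 (SE 0.37, 95% interval -0.73 to 0.72, adjusted p = 1.00, edgeR). In TPM the cKO 1 library was highest, at 5.62 against 3.28 to 4.03 in the other 3.

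Hey2 (ENSMUSG00000019789.9, chromosome 10, 30832359 to 30842801, minus strand), the family member best known from heart and arteries, stood at 2.09 and 1.26 CPM in the Controls, against 2.02 and 2.18 CPM in the cKO libraries, from 104 to 195 counts a library. In TPM it lay between the 88.9th and 99.5th percentile of the receptor genes of its library. The log2 fold change was 0.33 (SE 0.44, 95% interval -0.53 to 1.19, adjusted p = 1.00, edgeR), and it was 0.72 without Control 1 and -0.01 without Control 2.

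Nrarp (ENSMUSG00000078202.3, chromosome 2, 25180758 to 25183339, plus strand), a Notch target that binds the receptor fragment and Rbpj and shortens the signal, had between 50 and 86 counts a library. It stood at 0.870 and 0.606 CPM in the Controls, against 0.988 and 0.661 CPM in the cKO libraries, and the groups overlapped (log2 fold change 0.16, SE 0.60, 95% interval -1.01 to 1.33, adjusted p = 1.00, edgeR). In TPM it fell between the 47.0th and 78.6th percentile of the receptor genes, so its level was not distinguishable from the low-level background. An antisense gene, Gm38287, covers 79.4% of its exonic bases and was listed at 0 in each library. If the counting did not use strand, reads of the pair cannot be told apart.

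Hes5 (ENSMUSG00000048001.7, chromosome 4, 154960923 to 154962371, plus strand), a strong Notch target in neural progenitors, had 10 and 11 counts in Control and 23 and 5 in cKO. Its TPM of 0.152 to 0.456 lay between the 13.5th and 39.9th percentile of the receptor genes, below their median in each library. The highest value was in cKO 1, the library with the highest receptor background. The log2 fold change of 0.30 has an SE of 0.98 and a 95% interval from -1.63 to 2.22 (adjusted p = 1.00, edgeR), and it was -1.18 without cKO 1. A difference in Hes5 was not detectable at this depth. An antisense gene, Gm20421, shares 21.8% of its 50-base words and was listed at 3 counts in cKO 1 and at 0 in the other 3 libraries. The promoter matches shown above thus include a gene at background (Hes5), a gene near it (Hey2) and a gene in the upper band (Rbpj).

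The ratio of a gene's count to its TPM, scaled on 1671 genes with a single transcript, gives the mean length of its assigned transcripts. The authors' estimate made that assignment. CPM and TPM also differ in scaling between libraries, so they can order libraries differently at equal length. CPM use TMM factors, 0.935 and 0.965 in the Controls, 1.27 in cKO 1 and 0.876 in cKO 2, which TPM lack. For Heyl the mean length ran from 4449 to 4499 bases, while cKO 1 was below cKO 2 in CPM and above it in TPM. For Hey1 the length ran from 2269 to 2349 bases. For Hes1 it was 1377 and 1399 bases in the Controls, 1400 bases in cKO 1 and 1263 bases in cKO 2. For Rbpj it was 4928 and 4899 bases in the Controls, 4950 bases in cKO 1 and 5178 bases in cKO 2. For Hes5 it was 1395 and 1312 bases in the Controls, 1315 bases in cKO 1 and 432 bases in cKO 2, where the gene had 5 counts. Hes5 in cKO 2 was hence below both Controls in CPM and above both in TPM, which placed it in the TPM count above. The cKO 2 library thus had the shortest mean transcript for Hes1 and the longest for Rbpj. These lengths come from 2 libraries a group and were not tested.

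**Figure D3:**
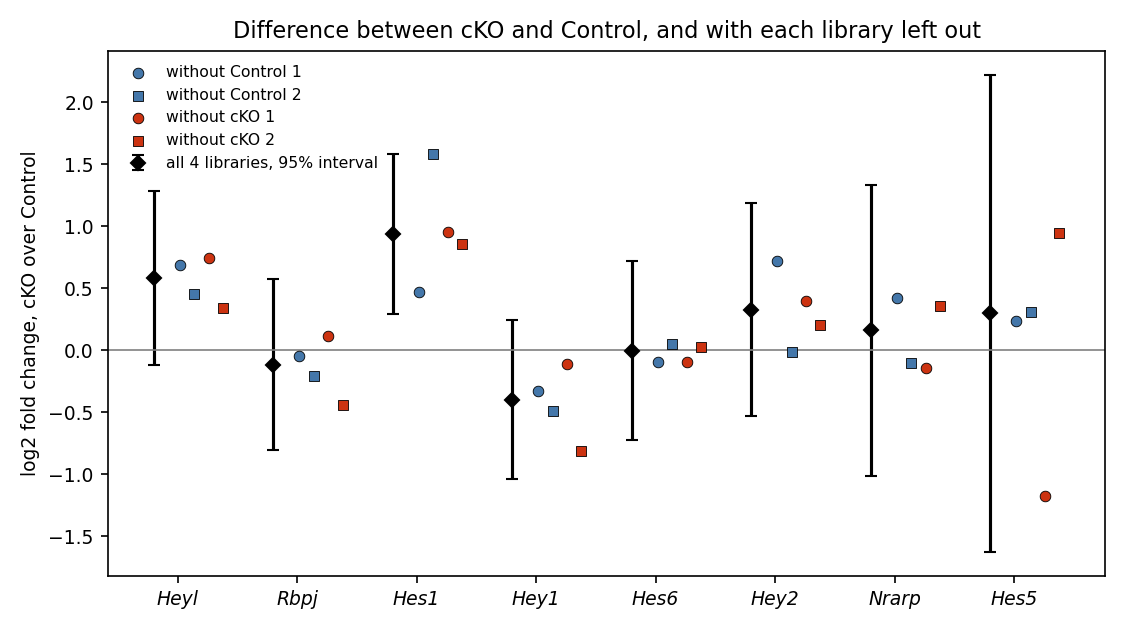
Log2 fold change of cKO over Control for each gene in edgeR's quasi-likelihood test: black diamonds with 95% intervals for all 4 libraries, coloured points with 1 library left out (blue, a Control; red, a cKO; circles, replicate 1; squares, replicate 2). Hes1, Heyl and Hey1 keep their direction in every fit shown, while the points of the other 5 genes fall on both sides of 0. The groups of Hes1, Heyl and Hey1 do not overlap in CPM, so leaving out 1 library left little room for another sign.

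The other genes of the pathway, from lists made by role, were compared in the same fit. Of 71 symbols from receptors to turnover factors, Tle5, another name for Aes, had no row. Of the 70 genes tested, 0 passed the threshold in edgeR, with 4 at an unadjusted p under 0.05, against 0.551% and 4.83% of all genes. DESeq2 called 0 with 1 before adjustment, against 0.252% and 3.1%. Limma on TPM called 0 of 63 with 6 before adjustment, against 0.308% and 14.9%. The median log2 fold change over the 70 was 0.07, against 0.06 over all genes, and 38 were positive. Both cKO libraries lay above both Controls for 17 and below for 7 of them, against 18.0% and 13.3% of all genes.

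Of the 4 receptors, 3 had both cKO libraries above both Controls in CPM, against 18.0% of all genes, and the median was 0.56. One of the 3, Notch4, stood at only 1.41 to 2.81 CPM, and its groups overlapped in TPM. Notch2 overlapped, at 137.3 and 130.0 CPM in the Controls, against 93.0 and 147.7 CPM in the cKO libraries (log2 fold change -0.15, SE 0.35, edgeR). Notch1 stood at 45.5 and 49.3 CPM in the Controls, against 72.8 and 80.0 CPM in the cKO libraries (log2 fold change 0.69, SE 0.34, adjusted p = 0.975 in edgeR). Notch3, which like Heyl is also made by mural cells, stood at 100.6 and 104.6 CPM in the Controls, against 150.9 and 131.0 CPM in the cKO libraries (0.46, SE 0.35, adjusted p = 1.00). The ratio of Heyl to Notch3 in TPM was 3.31 and 2.72 in Control and 2.75 and 3.97 in cKO, with no separation of the groups. Notch1 passed the threshold with library totals only (0.85, adjusted p = 0.0207) and without cKO 1 (0.77, adjusted p = 0.0108), the same fits in which Heyl did.

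The 8 ligands had a median of 0.41, with 0 at an unadjusted p under 0.05 in edgeR, against 4.83% of all genes. Of these ligands, Dll3, Dlk1, Dlk2 and Dner had means of only 0.17 to 1.03 CPM. The 18 genes of ligand and receptor processing had a median of 0.07. Coactivators and corepressors of Rbpj had medians of -0.09 (8 genes) and -0.17 (14 genes). Spen, a corepressor that binds Rbpj, had the largest difference among the latter, at 13.9 and 15.1 CPM in the Controls, against 23.0 and 24.3 CPM in the cKO libraries (0.70, adjusted p = 0.868). Tle3, a Groucho corepressor of the kind Hes proteins recruit, stood at 24.4 and 26.8 CPM in the Controls, against 43.6 and 39.3 CPM in the cKO libraries (0.70, adjusted p = 0.915). Among 12 inhibitors and turnover factors, Numbl, the relative of Numb, stood at 8.57 and 9.08 CPM in the Controls, against 16.9 and 14.7 CPM in the cKO libraries (0.84, SE 0.32, adjusted p = 0.511). For Spen, Tle3 and Numbl both cKO libraries were above both Controls in CPM. These genes were picked for the size of their log2 fold change, which favours such a separation. It was seen for 17 of the 70 pathway genes, against 18.0% of all genes. In TPM the separation held for Spen and Numbl, while Tle3 overlapped, at 9.51 and 17.9 TPM in the Controls and 23.4 and 13.5 TPM in cKO 1 and 2. Without cKO 2, 11 pathway genes passed the threshold, 9 of them lower and 2 higher, in a fit that called 2267 genes, 2016 of them lower. The higher ones were Tle3 (0.70, adjusted p = 0.0473) and Numbl (0.87, adjusted p = 0.0439).

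**Figure D4:**
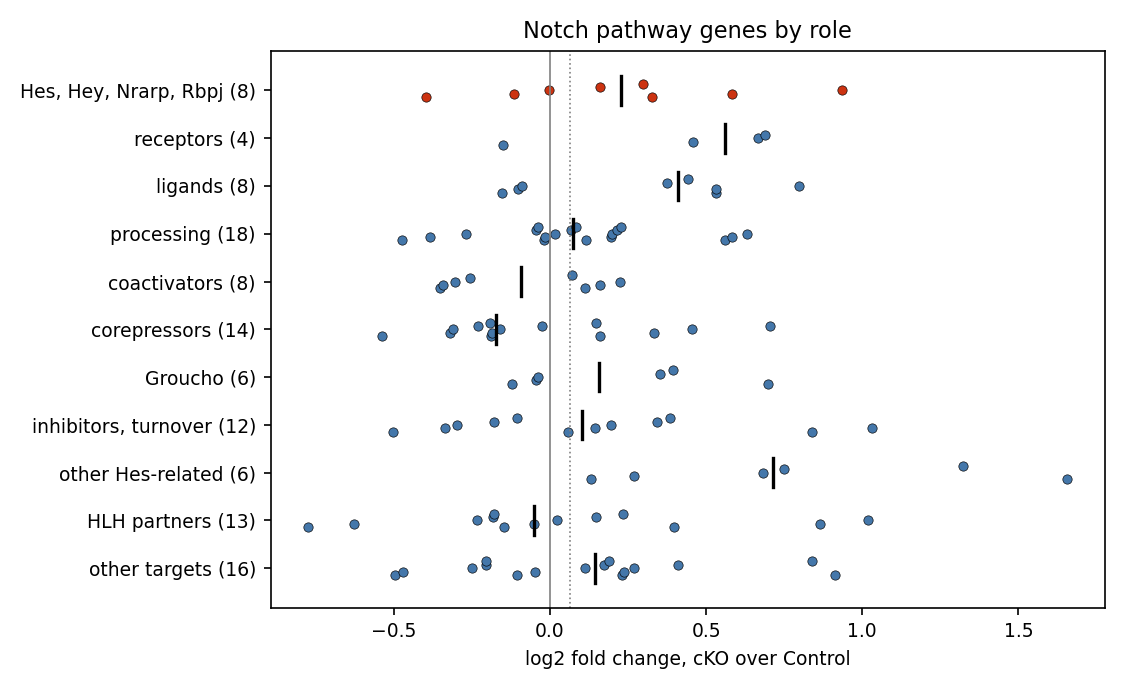
Log2 fold change of cKO over Control in edgeR for the 8 genes (red) and for the other pathway genes by role (blue), with the number of genes in brackets and a black bar at each median. The dotted line marks the median of all genes tested, 0.06, and no point passed the threshold.

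Among 19 other Hes-related and partner helix-loop-helix genes, 0 passed in edgeR, DESeq2 or limma on TPM, against 0.551%, 0.252% and 0.308% of all genes. Before adjustment there were 3, 1 and 3 (of 13 in limma), against 4.83%, 3.1% and 14.9%, and the edgeR median was 0.15. The 6 other Hes-related genes were all positive, but Hes2, Hes3, Hes7 and Helt had a mean of at most 0.475 TPM. Of the partners, Id2, an inhibitor of helix-loop-helix dimers, stood at 454.2 and 428.5 CPM in the Controls, against 185.3 and 331.0 CPM in the cKO libraries (-0.77, SE 0.37, adjusted p = 0.926). Its difference was -0.40 without cKO 1 (adjusted p = 0.192). It passed with library totals only (-0.68, adjusted p = 0.0208) and without cKO 2 (-1.32, adjusted p = 0.000768), as 1 of the 2016 genes called lower there. Tcf3, the E protein partner of Myod1, stood at 2.84 and 6.06 CPM in the Controls, against 11.1 and 5.14 CPM in the cKO libraries (0.86, adjusted p = 0.515), and the groups overlapped. With 1 library left out, Tcf3 ranged from 0.22 (without cKO 1) and 0.40 (without Control 1) to 1.24 (without cKO 2) and 1.49 (without Control 2). Bhlhe41, a repressor of the related Dec family, stood at 28.8 and 27.5 CPM in the Controls, against 26.6 and 41.2 CPM in the cKO libraries (0.27, adjusted p = 1.00). Myod1, which Hes and Hey proteins antagonise, stood at 2542 and 2782 CPM in the Controls, against 2493 and 2913 CPM in the cKO libraries (0.02, SE 0.40, adjusted p = 1.00), and its sign turned in 5 alternatives.

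Of 16 other genes reported as Notch or Rbpj targets, 0 passed in any of the 3 tools, against 0.551% of all genes in edgeR, 0.252% in DESeq2 and 0.308% in limma on TPM. Before adjustment there were 2 in edgeR (against 4.83%), 1 in DESeq2 (3.1%) and 3 of 14 in limma (14.9%). The edgeR median was 0.14, with 9 positive. Beside Pax7, Calcr, the calcitonin receptor of quiescent satellite cells, stood at 273.0 and 124.7 CPM in the Controls, against 105.8 and 176.2 CPM in the cKO libraries (-0.50, adjusted p = 1.00), and the groups overlapped. Without Control 1 it turned to 0.17. Efnb2, an ephrin induced by Notch in arteries, stood at 15.3 and 14.0 CPM in the Controls, against 9.11 and 12.0 CPM in the cKO libraries (-0.47, adjusted p = 1.00). It was -0.27 without cKO 1 and -0.75 without cKO 2, with neither past the threshold. Myc, a growth regulator and Notch target in T cells, stood at 1381 and 1397 CPM in the Controls, against 1045 and 1539 CPM in the cKO libraries (-0.10, adjusted p = 1.00).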

How the data were processed

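The authors deposited 2 tables of the 4 libraries: estimated counts per gene, already whole numbers, and TPM, which the authors brought to 1 total and which hence keeps no depth. HISAT2 2.1.0 and StringTie 1.3.6, on build GRCm38, are listed in the submitters' processing notes. Strand setting and filters: not given in the sources used here. Per the labels' protocols, 10 ng of RNA per sample went through SMART-Seq. Positions and transcripts come from GENCODE M21 on GRCm38.

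Group differences in counts were tested in edgeR 4.0.16 under R 4.3.3 (TMM, filterByExpr, robust quasi-likelihood test, Benjamini-Hochberg over all genes tested, threshold 0.05). CPM use the TMM-scaled library sizes. An SE is the size of the log2 fold change over the square root of F. It reflects a gene's own spread little, since the fit shares the spread over genes. It was 0.33 for Hes1, whose Controls differed 2.17-fold, and 0.32 for Spen, whose Controls stood at 13.9 and 15.1 CPM. TPM were compared with limma 3.58.1 on log2(TPM + 1) at a mean TPM of at least 1. That scale understates changes of low genes. Alternatives were other scalings and filters, DESeq2 1.42.0, a replicate block and each library left out. The genes and lists were chosen with earlier results of these data known. Outside the 8 genes, the rule named all called genes of a list or, with none, the 3 with the largest difference at a mean CPM of at least 4 and the 1 with the highest mean TPM. Some genes that it picks are not reported here. Notch1 and Notch3 fall outside it and were chosen after their values were seen, and Notch2 and Notch4 are given beside them. In the library codes of the labels, the parts L01 and L02 go with the replicate number and the last number goes with the group, so what it marks cannot be told apart from the group. Protein sequences were not used here. The edgeR script was tested on simulated data.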

Additional observations from a re-analysis of the deposited data

How the results depend on the processing

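Over all genes, 210 were called (139 higher, 71 lower in cKO), against 119 with DESeq2 size factors (66 higher, 53 lower), 28 with no filter on low counts, 14 after a filter of 5 CPM in 2 or more libraries, 96 with DESeq2 (53 higher, 43 lower), 89 without the robust option, 53 with limma on TPM and 51 to 2267 with 1 library left out (26 higher and 25 lower without Control 1, 251 higher and 2016 lower without cKO 2). On TPM, the 53 became 102 with a pseudocount of 0.1, 24 with 5, 404 with no filter and 18 to 608 with 1 library left out. A fit with 1 library in a group assumes that it varies like the others. A replicate block called 96 genes. The deviations of libraries with the same number correlated at -0.122 between the groups. With 2 libraries a group, this cannot show whether the numbers pair them. The crossed pairing, chosen after seeing the data, called 243. Neither block changed a call among the 8 genes.

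Of the 8 genes, edgeR called 0. In edgeR, library totals only called 1 (Heyl), and leaving out a library 0 to 1 (Heyl without cKO 1, Hey1 without cKO 2). In limma on TPM, Hes1 and Heyl were both called without Control 1 and without Control 2, and Heyl with no filter. In edgeR, library totals called 1 gene in each of the pathway, partner and target lists, and leaving out a library called 0 to 11, 0 to 2 and 0 to 1. Hes1, Heyl and Hey1 kept their direction in all 13 alternatives. Their groups do not overlap in CPM, so the fits with 1 library left out had little room for another sign. The number of all genes called with library totals only is not given here. Calls of Heyl, Pax7, Notch1 and Id2 in that fit hence stand without a background share. Under the 5 CPM filter, Hes5, Hes6, Hey2 and Nrarp were not tested, nor were Hes5 and Nrarp in limma.

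Signs turned as follows, on the log2 scale, and the cause was not tested. With library totals, Hes6 was 0.18, Rbpj 0.014 and Myc 0.017, on a scale whose median over all genes was 0.25. In limma on TPM, Hes6 was 0.16 and Myc 0.011. With the replicate block, Hes5 was -0.0035. Myod1 was -0.040 with DESeq2 size factors and with DESeq2, and -0.00041 with no filter. With 1 library left out, Hes5 ranged from -1.18 to 0.95, Hes6 from -0.096 to 0.054, Hey2 from -0.012 to 0.72, Nrarp from -0.15 to 0.42, Rbpj from -0.44 to 0.11, Bhlhe41 from -0.15 to 0.56, Calcr from -0.98 to 0.17, Myc from -0.48 to 0.16 and Myod1 from -0.16 to 0.14. On TPM, Hes6 ranged from -0.16 to 0.47 and Rbpj from -0.087 to 0.045.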
